A study of Mus musculus with 19 samples.

Results

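Transcripts of the S6 kinase and eIF4E arm of the kinase complex mTORC1 were measured in the brains of mice treated with CCI-779. This drug, also called temsirolimus, is an ester of rapamycin and an mTORC1 inhibitor. Its direct effects lie in protein phosphorylation, which arrays do not measure. The 9 genes chosen for their textbook roles in this arm were Rps6kb1, Rps6kb2, Eif4ebp1, Eif4ebp2, Eif4e, Eif4g1, Eif4b, Eef2k and Pdcd4, and a probe set was taken where its single gene symbol in the platform annotation was one of them. This gave 20 of the 45037 probe sets that are not controls, for 7 of the 9 genes. Rps6kb1 and Eif4g1 were not analysed here. Of the 20 probe sets, 13 had a mean of at least 4 on the log2 intensity scale over all arrays and were tested among 20473 probe sets.

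The study compared 4 groups of male mice. Wild-type (wt) mice received placebo (4 arrays) or CCI-779 (5 arrays), and transgenic SCA3 mice received placebo (5 arrays) or CCI-779 (5 arrays). SCA3 stands for spinocerebellar ataxia type 3, a disease of long polyglutamine repeats in ataxin-3. The dose of CCI-779 was 20 mg/kg by intraperitoneal injection, given 3 times a week over 6 weeks beginning at 5 weeks of age, and placebo was given as often. The promoter that drives the transgene, the strain and the number of mice behind each array are not given in the sources used here, so the spread behind each p-value may be technical in part or whole.

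In cells, mTORC1 acts on translation through a pair of substrate families. It phosphorylates the S6 kinases, encoded by Rps6kb1 and Rps6kb2, which in turn phosphorylate ribosomal protein S6, the helicase cofactor eIF4B, the elongation factor kinase eEF2K and the helicase inhibitor PDCD4. It also phosphorylates the eIF4E-binding proteins, encoded by Eif4ebp1 and Eif4ebp2, which otherwise hold the cap-binding protein eIF4E away from the scaffold eIF4G. In the brain the 4E-BP2 form is the main one, and this arm is studied for its part in synaptic plasticity.

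Of the 3 genes for which a drug difference passed the threshold in some probe set, Eif4b and Eif4ebp2 had an upstream sequence in the RefSeq table used here (GRCm38.p6), and Eif4e is shown with them because its expression is known to depend on E-boxes. Each line gives the 250 bases before the annotated start, 5′ to 3′ on the gene's strand, with capitals for CACGTG, the E-box bound by MYC and TFEB-type factors, and for GGGCGG or its complement CCGCCC, the GC box. The windows are chr15:102073523-102073772 on the plus strand for Eif4b, chr10:61452670-61452919 on the minus strand for Eif4ebp2 and chr3:138527018-138527267 on the plus strand for Eif4e. Eif4e has another annotated start in the table, with the window chr3:138525941-138526190 on the plus strand, which held 0 CACGTG and 0 GC boxes and is not shown.
Eif4b: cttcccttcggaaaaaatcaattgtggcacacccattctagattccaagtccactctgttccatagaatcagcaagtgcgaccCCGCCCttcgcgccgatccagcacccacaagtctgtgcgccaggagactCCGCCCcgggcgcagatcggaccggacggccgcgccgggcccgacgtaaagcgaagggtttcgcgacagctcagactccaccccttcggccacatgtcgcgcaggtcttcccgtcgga
Eif4ebp2: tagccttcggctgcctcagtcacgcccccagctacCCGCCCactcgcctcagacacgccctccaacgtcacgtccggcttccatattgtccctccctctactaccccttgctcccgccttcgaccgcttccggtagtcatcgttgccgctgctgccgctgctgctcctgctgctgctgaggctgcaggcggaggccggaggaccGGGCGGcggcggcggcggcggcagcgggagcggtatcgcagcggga
Eif4e: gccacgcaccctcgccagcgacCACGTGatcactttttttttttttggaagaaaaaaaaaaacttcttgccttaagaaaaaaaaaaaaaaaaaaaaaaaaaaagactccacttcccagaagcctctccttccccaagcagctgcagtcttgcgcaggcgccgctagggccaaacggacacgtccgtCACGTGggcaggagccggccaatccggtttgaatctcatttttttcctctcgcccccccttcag
The Eif4e window shown held CACGTG beginning 228 and 64 bases before the start and no GC box. Windows with 2 or more CACGTG made up 0.429% of the 32851 upstream windows in the table, and 6.02% held at least 1. Since Eif4e was shown for its E-boxes, these shares are no test of it. Of the 11 windows of the members, 3 held CACGTG and 6 a GC box. Eif4b had GC boxes beginning 167 and 118 bases before its start and Eif4ebp2 at 215 and 46 bases, and neither window held CACGTG. GC boxes occurred in 32.7% of all windows, and 2 or more in 16.7%. The boxes do not overlap one another in these windows, and a match is a description of the letters only.

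Mean intensities over all probe sets ranged from 443 to 469 among the arrays. Some transcripts that define brain cell types were bright, with mean log2 intensities of 15.15 for Snap25 (neurons), 15.33 for Mbp (oligodendrocytes) and 13.83 for Slc1a2 (astrocytes). Others were dim, such as Gpr34 (microglia) at 5.67, Flt1 (endothelium) at 7.18 and Folr1 (choroid plexus) at 4.71. Spike-in controls for hybridisation were dimmer with CCI-779, at 10.55 ± 0.09 (SD, n = 5) in log2 against 11.36 ± 0.18 (SD, n = 5) for placebo among SCA3 arrays. Among wt arrays they were at 10.23 ± 0.26 (SD, n = 5) against 11.13 ± 0.29 (SD, n = 4). For GAPDH, the 3′ probe set minus the 5′ one, which tracks RNA integrity, was −0.35 in log2 in SCA3 CCI-779 and −0.52 in SCA3 placebo, and −0.28 in wt CCI-779 and −0.54 in wt placebo. Array 1 of wt CCI-779 was at 0.28 on this measure and the other 4 arrays of its group between −0.44 and −0.39, against −0.58 to −0.50 in wt placebo. The part of these measures in the drug differences was not tested beyond the fits in which each was a covariate. The GAPDH measure was at least −0.44 on CCI-779 arrays and at most −0.47 on placebo arrays. The fit with that covariate therefore cannot separate it well from treatment. Calls gained or lost in it are given as a description, and nothing is concluded from them. Of 7 tested microglial markers, 4 fell in SCA3 and 3 in wt under CCI-779, with a summed intensity of 2717 to 3532 in SCA3 CCI-779, 3850 to 4282 in SCA3 placebo, 2704 to 3271 in wt CCI-779 and 3880 to 4379 in wt placebo. Of 6 oligodendrocyte markers, 3 fell in SCA3 and 0 in wt, with sums of 64796 to 70043, 73380 to 91813, 59334 to 73671 and 70678 to 83471 in the same order. Of 7 astrocyte markers, 1 rose in SCA3 and 2 in wt, with sums of 36668 to 39475, 32166 to 36380, 36386 to 39339 and 33736 to 36812. Of 5 tested markers of meninges and fibroblasts, 2 rose in SCA3 and 1 in wt, with sums of 1293 to 1690, 858 to 1302, 1085 to 1543 and 857 to 1239. Of 9 neuronal markers 1 rose and 1 fell in each genotype. Among 3 endothelial, 5 choroid plexus and 2 blood markers 0 rose and 0 fell. Over all tested probe sets 10.2% were called higher and 4.95% lower in SCA3, and 11.9% were called in either direction in wt. No tested marker of these lists was at 0, and the part of cell makeup in the results was not tested. In whole brain RNA, fewer cells of a type and less RNA per cell cannot be told apart.

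A trio of arrays stood apart from the rest. SCA3 CCI-779 replicates 2 and 5 scored −42.4 and −39.2 on the second principal component, and the remaining arrays of SCA3 CCI-779 between −2.47 and 1.96. Array 1 of wt CCI-779, whose label carries no number, scored −66.3 on the first component, and its actin 3′ minus 5′ difference was 2.55 in log2, against 0.88 to 1.55 on the other 18 arrays. Results that rest on these arrays are given with and without them.

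In SCA3 mice given CCI-779, 1 of the 13 probe sets passed the threshold, an adjusted p under 0.05 over all tested probe sets, against 15.2% of all tested probe sets, of which 10.2% were higher and 4.95% lower. In wt mice 0 of 13 passed, against 11.9% of all, with 3 of the 13 and 5913 of the 20473 at an unadjusted limma p under 0.05. Averaged over both genotypes, 3 of 13 passed (23.1%), 2 higher and 1 lower, against 28.8% of all tested probe sets, of which 20.1% were higher and 8.67% lower. The 3 were single probe sets of Rps6kb2, Eif4b and Eif4ebp2, and for Eif4b and Eif4ebp2 other probe sets of the gene did not pass. These shares are near or below the background, and nothing is read from them about the arm as a whole. One of the 13, Eif4ebp2 1437733_at, was above the limit for testing only through the SCA3 CCI-779 group. The median log2 difference of the 13 was −0.04, against 0.03 over all tested probe sets. Both placebo groups and both CCI-779 groups enter the averaged difference, so it shares its arrays with the difference in each genotype.

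**Figure D1:**
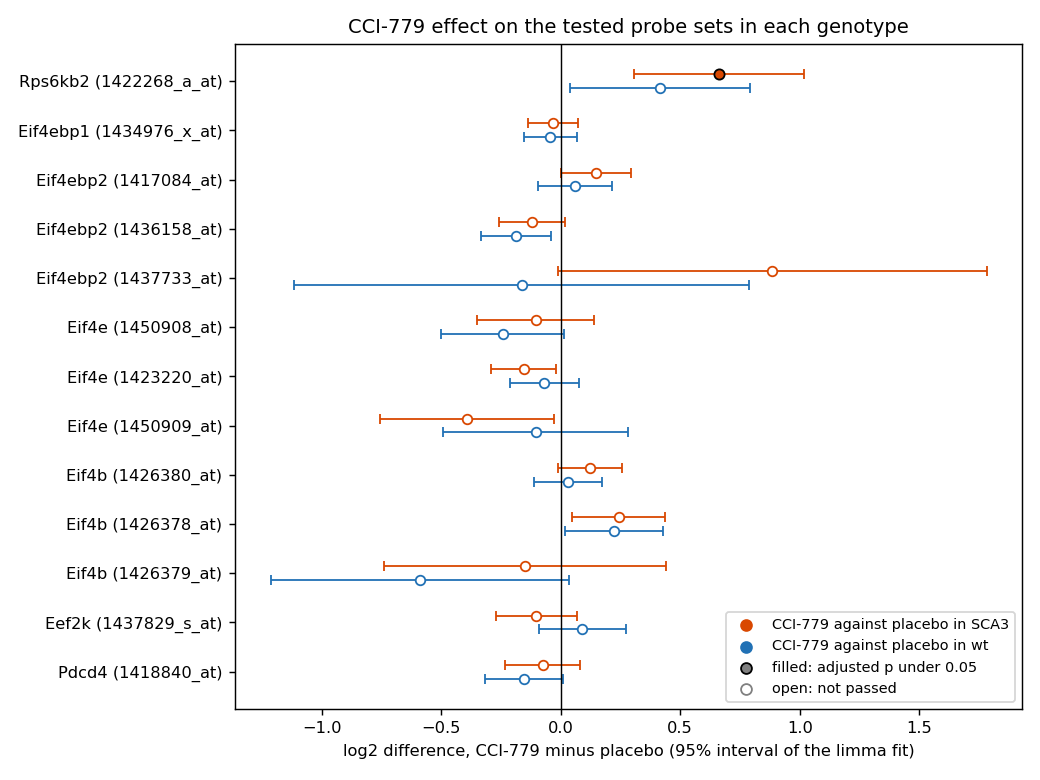
Log2 difference of CCI-779 minus placebo for the 13 tested probe sets, in SCA3 and in wt mice, with the 95% interval of the limma fit as bars; filled points passed an adjusted p under 0.05 and open points did not. The SCA3 point of Rps6kb2 at 0.66 is the filled one, and the widest intervals belong to Eif4ebp2 probe set 1437733_at and Eif4b probe set 1426379_at.

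Rps6kb2 encodes S6 kinase 2, one of the kinases that mTORC1 switches on. Its single probe set (1422268_a_at) had log2 intensities of 7.24, 7.77, 7.35, 7.47 and 7.74 in SCA3 CCI-779 and of 6.91, 7.10, 6.48, 6.98 and 6.80 in SCA3 placebo. All 5 drug arrays lay above all 5 placebo arrays, as they did for 8.51% of all tested probe sets. In SCA3 it rose 1.58-fold (log2 0.66, SE 0.17, adjusted p = 0.0143 by limma with Benjamini-Hochberg adjustment). Arrays 2 and 5, the 2 that stood apart, held the highest values of all 19 arrays, and without them the SCA3 difference was 0.50 and did not pass (adjusted p = 0.131). With array 1 of wt CCI-779 left out as well, which enters only through the spread, the adjusted p was 0.0908. In wt mice Rps6kb2 was at 6.73, 7.21, 6.66, 7.11 and 7.36 under CCI-779 and at 7.11, 6.29, 6.48 and 6.52 under placebo, groups that overlap through the first placebo array. The wt difference of 0.42 (95% interval 0.04 to 0.79) did not pass (adjusted p = 0.132), but reached 0.59 and passed without that placebo array (adjusted p = 0.0327). The difference between the genotypes in their response was 0.25 (SE 0.25, adjusted p = 0.809), so it was not shown that the drug acted differently in them. Averaged over the genotypes Rps6kb2 rose 1.45-fold (log2 0.54, SE 0.12, adjusted p = 0.00364), and by 0.46 without SCA3 CCI-779 arrays 2 and 5 (adjusted p = 0.0178). When spike-in intensity entered the fit as a covariate, the averaged difference was 0.47 and did not pass (adjusted p = 0.644), and under that covariate 0 of all 20473 probe sets passed. Spike-in values were at most 10.65 on CCI-779 arrays and at least 10.88 on placebo arrays. That fit therefore cannot separate spike-in intensity well from treatment, and nothing is concluded from it.

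**Figure D2:**
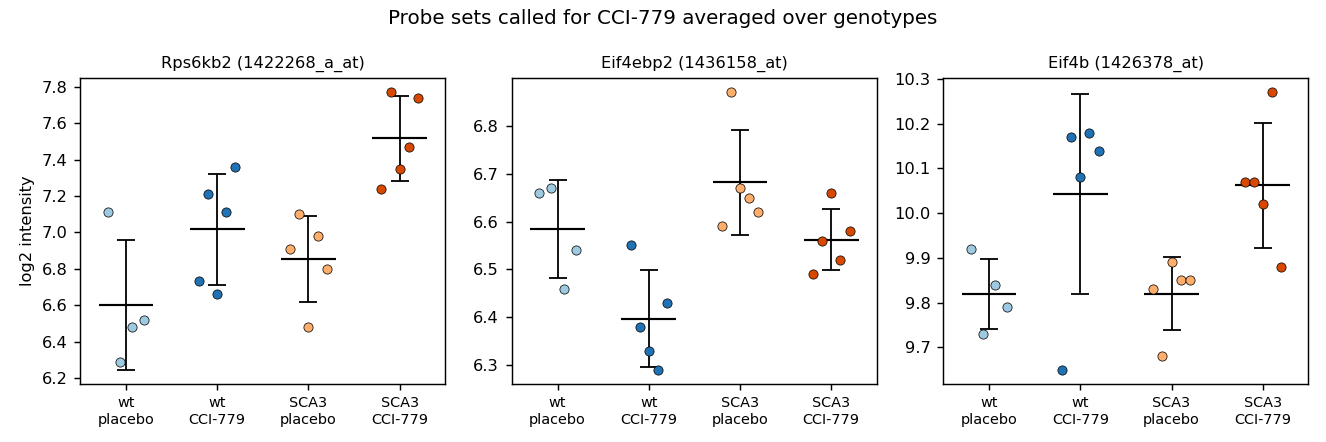
Log2 intensity of the 3 probe sets called for CCI-779 averaged over the genotypes, with 1 point per array, horizontal lines at group means and bars of 1 SD. Rps6kb2 and Eif4b means are higher and the Eif4ebp2 mean lower in each CCI-779 group than in the placebo group of the same genotype. In wt the groups overlap for each of the 3, and in SCA3 for Eif4b and Eif4ebp2 but not for Rps6kb2.

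Eif4b encodes eIF4B, which stimulates the helicase eIF4A and is phosphorylated by S6 kinase. It had 3 probe sets, designed to the same representative sequence in the platform annotation, and they disagreed. Probe set 1426378_at was at 10.07, 10.07, 10.02, 10.27 and 9.88 in SCA3 CCI-779 and at 9.83, 9.68, 9.89, 9.85 and 9.85 in SCA3 placebo. In wt it was at 9.65, 10.17, 10.08, 10.18 and 10.14 under CCI-779 and at 9.92, 9.73, 9.84 and 9.79 under placebo, so array 1 was the lowest of its group and the other 4 lay above every placebo array. Averaged over the genotypes this probe set of Eif4b rose 1.18-fold (log2 0.23, SE 0.07, adjusted p = 0.0155). Neither genotype alone passed, with differences of 0.24 in SCA3 (adjusted p = 0.0848) and, for wt, 0.22 (adjusted p = 0.138). Without wt CCI-779 array 1 both passed, at 0.24 (adjusted p = 0.0153) and 0.32 (adjusted p = 0.0131). Under other scalings the averaged difference did not pass, with 0.18 once the arrays were quantile-normalized again (adjusted p = 0.0691) and 0.15 with each array centred on its median (adjusted p = 0.102).

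The brightest Eif4b probe set, 1426380_at, was flat. Its group means were 10.68 ± 0.01 (SD, n = 4) for wt placebo and 10.71 ± 0.08 (SD, n = 5) for wt CCI-779. SCA3 placebo had 10.64 ± 0.08 (SD, n = 5) and SCA3 CCI-779 had 10.76 ± 0.14 (SD, n = 5). Its averaged drug difference of 0.08 did not pass (95% interval −0.02 to 0.17, adjusted p = 0.229). Only without the 3 arrays that stood apart did it pass in SCA3 among the alternatives run (0.21, adjusted p = 0.0456). The third probe set, 1426379_at, differed by −0.37 (95% interval −0.80 to 0.06, adjusted p = 0.184). On it array 1 of wt CCI-779 was at 6.90, the array with the widest actin 3′ to 5′ difference, while the other 18 arrays lay between 8.22 and 9.31. The mean over all 3 probe sets of Eif4b differed by −0.02 (SE 0.09, adjusted p = 0.884).

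Eef2k encodes the calcium-dependent kinase that inhibits the elongation factor eEF2 and is itself restrained by S6 kinase. Probe set 1437829_s_at was at 8.49, 8.30, 8.32, 8.25 and 8.30 in wt CCI-779, at 8.43, 8.23, 8.09 and 8.23 in wt placebo, at 8.25, 8.23, 8.13, 8.19 and 8.13 in SCA3 placebo and at 7.85, 8.29, 8.07, 7.97 and 8.23 in SCA3 CCI-779. Every neighbouring pair in that order of means overlapped. The drug difference was −0.10 in SCA3 (95% interval −0.27 to 0.07, adjusted p = 0.425) and 0.09 in wt (−0.09 to 0.27, adjusted p = 0.512), and their difference did not pass (−0.19, adjusted p = 0.718). Between SCA3 and wt mice given CCI-779 the difference was −0.25 (95% interval −0.42 to −0.08, adjusted p = 0.19). Without SCA3 CCI-779 arrays 2 and 5, in a fit on the mean of each gene's tested probe sets, Eef2k differed by −0.22 in SCA3 (adjusted p = 0.102). Between the CCI-779 groups it then differed by −0.37 (adjusted p = 0.243), and neither passed. The other Eef2k probe sets, with means of 3.30 and 2.35, were too dim to be tested, although 1439860_at reached 3.97 and 3.46 on SCA3 CCI-779 arrays 5 and 2 against 3.19 to 3.35 elsewhere.

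Pdcd4 encodes a tumour suppressor that binds eIF4A and blocks it until S6 kinase marks the protein for destruction. Its probe set (1418840_at) was at 10.68, 10.65, 10.71, 10.73 and 10.65 in SCA3 CCI-779 and at 10.92, 10.60, 10.80, 10.78 and 10.71 in SCA3 placebo. In wt it was at 10.80, 10.51, 10.67, 10.39 and 10.43 under CCI-779 and at 10.67, 10.74, 10.67 and 10.79 under placebo, where 3 of the 5 drug arrays lay below all placebo arrays. The differences of −0.08 in SCA3 (adjusted p = 0.527), −0.15 in wt (adjusted p = 0.202) and −0.12 on average (95% interval −0.23 to −0.00164, adjusted p = 0.117) did not pass. The averaged difference passed in some other settings, at −0.15 after quantile normalization (adjusted p = 0.0397), −0.20 after median centring (adjusted p = 0.0111) and −0.15 without wt CCI-779 array 1 (adjusted p = 0.0282). With the GAPDH covariate it was −0.20 (adjusted p = 0.0206), and in wt it passed after median centring (−0.26, adjusted p = 0.0448).

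Among the eIF4E-binding proteins, Eif4ebp2 was measured and Eif4ebp1 was at the edge of detection. Of the 3 Eif4ebp1 probe sets 2 had means of 2.30 and 2.70 and were not tested. The third, 1434976_x_at, lay between 3.97 and 4.28 on all 19 arrays, just above the limit of 4, and its averaged drug difference was −0.04 (95% interval −0.11 to 0.04, adjusted p = 0.45). Eif4ebp2, the form that predominates in neurons, had 5 probe sets. Those with means of 2.19 and 2.02 were not tested, and 1437733_at, with a mean of 4.20, passed the limit of 4 through the SCA3 CCI-779 group, at 4.97 on average against 3.76 to 4.09 in the other 3 groups. Its mean over the 14 arrays outside that group was 3.92, so its differences that involve the group are given as a description, with no test.

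The 3 tested Eif4ebp2 probe sets did not move together. Probe set 1436158_at was at 6.49, 6.56, 6.66, 6.52 and 6.58 in SCA3 CCI-779, at 6.59, 6.87, 6.67, 6.65 and 6.62 in SCA3 placebo, at 6.55, 6.38, 6.33, 6.29 and 6.43 in wt CCI-779 and at 6.66, 6.67, 6.46 and 6.54 in wt placebo. The groups overlap in each genotype, with the drug arrays mostly at the lower end. Averaged over the genotypes this probe set fell by 0.15 (log2, SE 0.05, adjusted p = 0.0228). Neither the −0.12 of SCA3 (adjusted p = 0.229) nor the −0.19 of wt (adjusted p = 0.0841) passed, but the wt value was −0.23 without wt CCI-779 array 1 and then passed (adjusted p = 0.0493). The averaged call was lost without the second wt placebo array (−0.14, adjusted p = 0.0518). The brightest probe set, 1417084_at, averaged 7.70 ± 0.07 (SD, n = 5) with CCI-779 and 7.56 ± 0.14 (SD, n = 5) with placebo among SCA3 arrays. Among wt arrays it averaged 7.69 ± 0.12 (SD, n = 5) with CCI-779 and 7.63 ± 0.06 (SD, n = 4) with placebo. Its averaged difference of 0.10 pointed the other way and did not pass (95% interval −0.00347 to 0.21, adjusted p = 0.135). The mean over the 3 tested probe sets of Eif4ebp2 differed by 0.10 (SE 0.11), and by −0.06 without SCA3 CCI-779 arrays 2 and 5. It includes the probe set that passed the limit for testing only through the SCA3 CCI-779 group. The mean is therefore given as a description, with no test.

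Probe set 1437733_at of Eif4ebp2 turned on single arrays. It was at 6.13 and 6.67 on SCA3 CCI-779 arrays 2 and 5 and between 3.38 and 4.50 on the other 17 arrays. The SCA3 drug difference was 0.89, and −0.07 without those arrays. The averaged difference was 0.36, and −0.12 without them, and the wt difference was −0.16 (adjusted p = 0.839). Arrays 2 and 5 both lay outside the range of the other 17 for 4 of the 13 probe sets, against 17.3% of all tested probe sets. They lay above for Rps6kb2 and Eif4ebp2 1437733_at and below for 2 probe sets of Eif4e. Since Eif4ebp2 1437733_at entered the 13 only through the SCA3 CCI-779 group, nothing is read from that count.

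**Figure D3:**
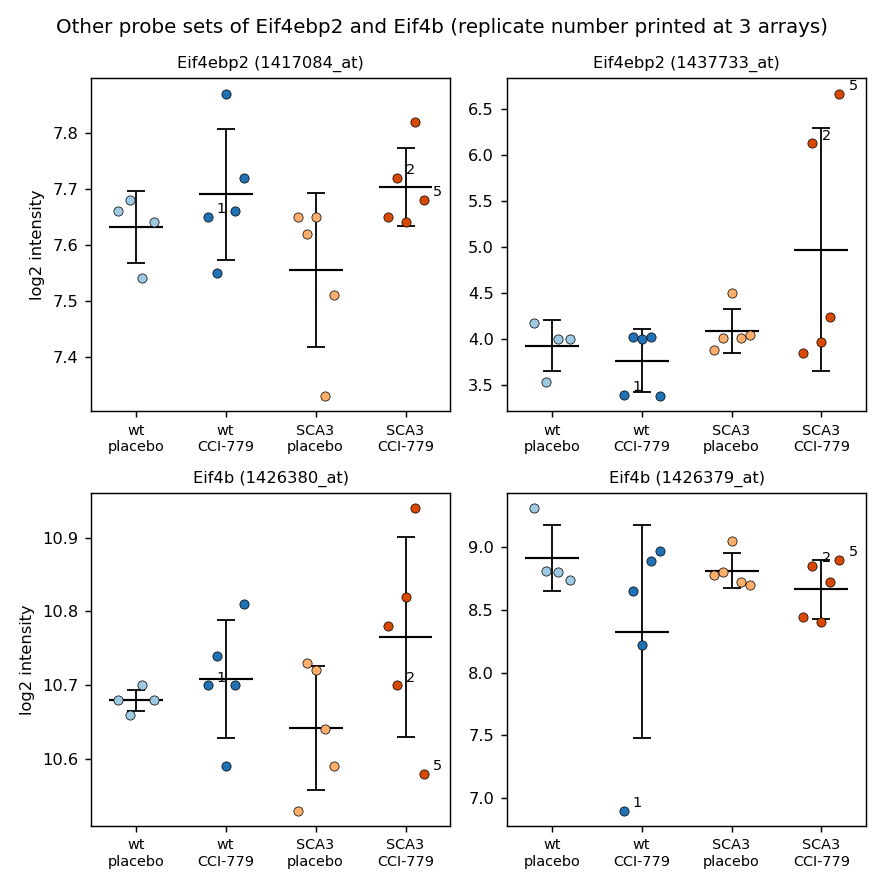
Log2 intensity of the 2 other tested probe sets of Eif4ebp2 and of Eif4b, with 1 point per array, means as lines and bars of 1 SD; the replicate number stands beside SCA3 CCI-779 arrays 2 and 5 and wt CCI-779 array 1. Arrays 2 and 5 carry the high SCA3 CCI-779 values of Eif4ebp2 1437733_at, and array 1 the low value of 6.90 of Eif4b 1426379_at.

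Eif4e encodes the cap-binding protein that the 4E-BPs hold back. Its 3 tested probe sets share a representative sequence in the annotation, and the averaged drug difference was below 0 in each without passing. The brightest, 1450908_at, was at 10.37, 10.79, 10.59, 10.67 and 10.96 in SCA3 CCI-779, at 10.74, 10.86, 10.72, 10.79 and 10.79 in SCA3 placebo, at 10.30, 10.72, 10.85, 10.96 and 10.75 in wt CCI-779 and at 11.11, 10.78, 10.87 and 11.08 in wt placebo. All of these groups overlap their neighbours, and the averaged difference was −0.17 (95% interval −0.35 to 0.00357, adjusted p = 0.13), or −0.24 without SCA3 CCI-779 arrays 2 and 5, which passed (adjusted p = 0.0447). Probe set 1423220_at was at 9.36, 9.11, 9.43, 9.43 and 9.13 in SCA3 CCI-779 and at 9.43, 9.49, 9.40, 9.52 and 9.38 in SCA3 placebo. Its low values on arrays 2 and 5 set it apart, with a SCA3 difference of −0.16 (95% interval −0.29 to −0.02, adjusted p = 0.116) and an averaged one of −0.11 (adjusted p = 0.0853). Without those arrays they were −0.04 (adjusted p = 0.69) and −0.05 (adjusted p = 0.269). Without SCA3 CCI-779 array 4 the averaged difference was −0.13 and passed (adjusted p = 0.0495). In wt this probe set was at 9.51, 9.46, 9.47, 9.46 and 9.41 under CCI-779 and at 9.58, 9.59, 9.48 and 9.46 under placebo.

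The dimmest tested Eif4e probe set, 1450909_at, was at 4.23, 4.18, 5.10, 4.86 and 4.17 in SCA3 CCI-779 against 4.56 to 5.35 in SCA3 placebo, a difference of −0.39 (adjusted p = 0.135). The averaged difference was −0.25 (adjusted p = 0.149). Without arrays 2 and 5 the SCA3 difference was −0.17 (adjusted p = 0.615), and the averaged one −0.14 (adjusted p = 0.424). Without array 3, the highest of SCA3 CCI-779, this probe set passed in SCA3 (−0.54, adjusted p = 0.0264) and on average (−0.32, adjusted p = 0.0376). In wt it ran from 4.60 to 5.14 under CCI-779 and from 4.83 to 5.06 under placebo. When the 3 probe sets of Eif4e were averaged before the fit, the gene fell by 0.22 in SCA3 (SE 0.07, adjusted p = 0.0495) and by 0.18 averaged over the genotypes (SE 0.05, adjusted p = 0.0172), and differed by −0.14 in wt (adjusted p = 0.247). Both calls of the Eif4e mean were lost without SCA3 CCI-779 arrays 2 and 5, at −0.15 in SCA3 (adjusted p = 0.297) and −0.14 averaged (adjusted p = 0.0643). Centring each array on its median also took the averaged difference of all 3 probe sets past the threshold, at −0.26, −0.19 and −0.33 (adjusted p = 0.0228, 0.0106 and 0.0491). That centring shifted every averaged drug difference by −0.08, the SCA3 ones by −0.06 and the wt ones by −0.10, and it lowered the share of calls that were higher from 69.9% to 38.5%. After quantile normalization the share was 50.6%, and 1423220_at passed at −0.18 (adjusted p = 0.0161). The remaining Eif4e probe set, with a mean of 2.13, was not tested.

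**Figure D4:**
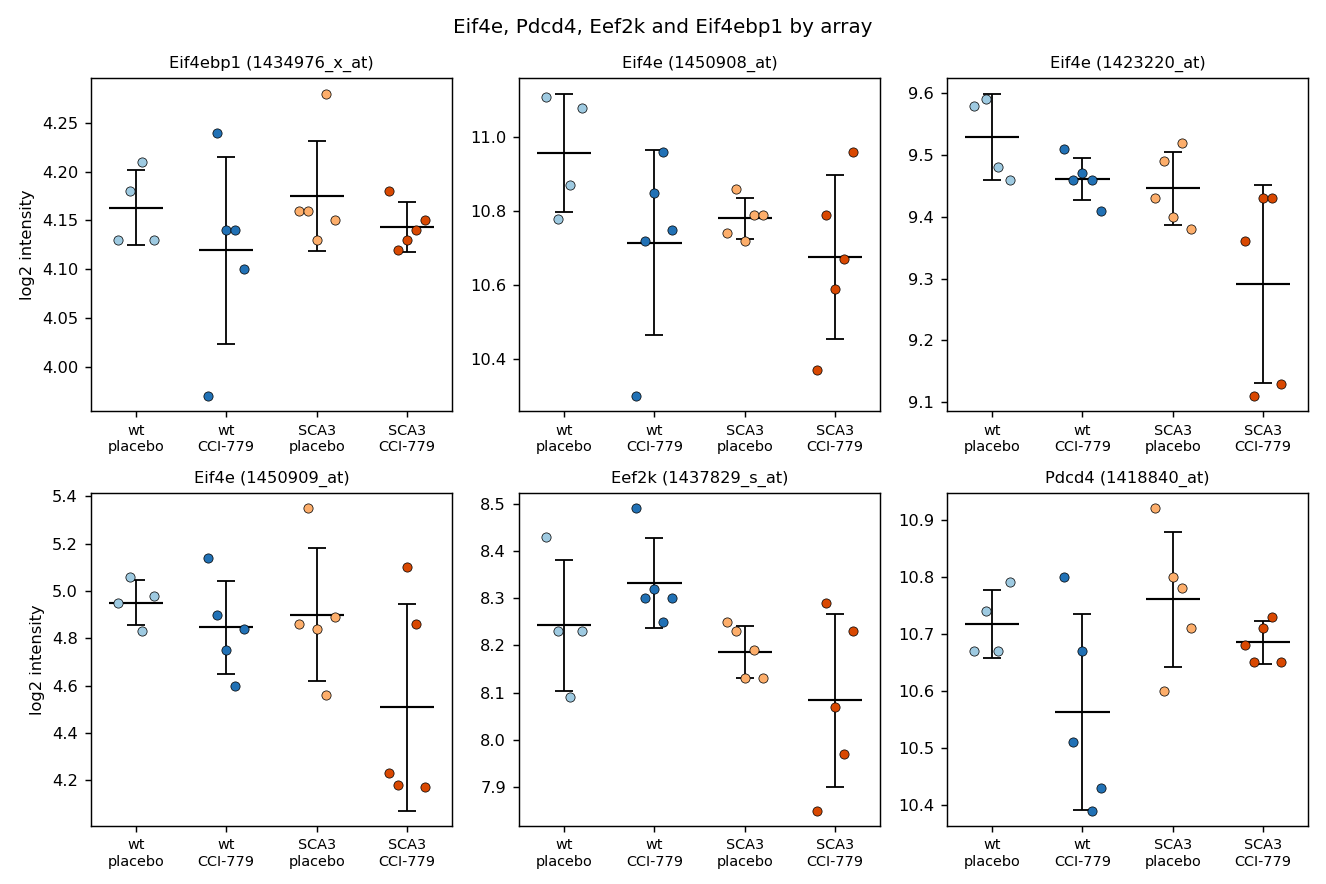
Log2 intensity of the tested probe sets of Eif4e, Pdcd4, Eef2k and Eif4ebp1, with 1 point per array, means as lines and bars of 1 SD. The axes differ between panels and do not start at 0; none of these 6 probe sets passed the threshold in a drug comparison, and the Eif4ebp1 values span 3.97 to 4.28.

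The SCA3 genotype was not followed by a called difference in any of these genes. Under placebo 0 of 13 probe sets passed by limma, against 0.00977% of all tested probe sets. An unadjusted p under 0.05 was held by 0 of the 13 and 1177 of the 20473. The differences of SCA3 minus wt ran from −0.18 (Eif4e 1450908_at, 95% interval −0.44 to 0.08) to 0.25 (Rps6kb2, −0.12 to 0.63), with adjusted p-values of at least 0.945. Under CCI-779 0 of 13 passed, against 0.00977% of all, with adjusted p-values from 0.19 to 0.949. At an unadjusted limma p under 0.05 were 5 of the 13 and 3163 of the 20473. Eif4ebp2 1437733_at, among the 5, entered the 13 only through the SCA3 CCI-779 group, so nothing is read from that count. The 5 were Eef2k 1437829_s_at, Rps6kb2 (0.50, 95% interval 0.15 to 0.86), Eif4ebp2 1437733_at (1.21, a description only), Eif4ebp2 1436158_at (0.17, 0.03 to 0.30) and Eif4e 1423220_at (−0.17, −0.31 to −0.03). In 3 of them, Rps6kb2, Eif4ebp2 1437733_at and Eif4e 1423220_at, the SCA3 CCI-779 arrays 2 and 5 lay outside all other arrays. Without those arrays the differences were 0.34 for Rps6kb2 (adjusted p = 0.895), 0.26 for Eif4ebp2 1437733_at and −0.06 for Eif4e 1423220_at (adjusted p = 0.972). The test of whether the drug response differed between the genotypes passed for 0 of 13 and 0 of 20473 probe sets, with 0 of the 13 and 1573 of all at an unadjusted p under 0.05.

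Profiles most like the 3 called members were sought among 10454 genes by the root mean square difference over the 19 arrays, each profile centred on its mean. Nearest to Rps6kb2 were Phf1 (0.20 log2 units), Faim2 (0.21) and Vegfb (0.22), where the median gene differed by 0.45 and Rps6kb2 itself varied by 0.42 around its mean. The genes nearest to Eif4b 1426378_at were Ank (0.10), Tubgcp2 (0.10) and Sae1 (0.11), against a median of 0.24. For Eif4ebp2 1436158_at they were Micu3, Jkamp and Pld2 (all 0.09), against a median of 0.22. For members that vary little this measure also picks genes that vary little.

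Around these members, 54 other genes of the pathway were measured by their brightest probe set. Averaged over the genotypes 14 rose (25.9%) and 8 fell (14.8%) under CCI-779. Of all 10454 genes 30.3% passed with both directions counted, so rises and falls have to be added before that comparison. By direction, 20.1% of all tested probe sets were higher and 8.67% lower, counted by probe set rather than by gene. Whether the lists differ from these backgrounds was not tested. Of 16 partners of the eIF4F complex 2 rose and 2 fell, with a median of −0.01 against 0.04 over all genes. Eif4g3, a scaffold related to eIF4G, rose by 0.56 (SE 0.07, adjusted p = 5.76e-05), by 0.52 in SCA3 (adjusted p = 0.00298) and, in the wt mice, by 0.60 (adjusted p = 0.0029). Eif4h, a cofactor of eIF4A like eIF4B, rose by 0.12 (adjusted p = 0.0281), a call lost without SCA3 placebo array 2 or wt placebo array 3 or 4 (adjusted p = 0.0522, 0.0561 and 0.0547). The Eif4h call was also lost after median centring (0.04, adjusted p = 0.456), in the mean of its probe sets (0.09, adjusted p = 0.0554) and with the GAPDH covariate (0.08, adjusted p = 0.249). Paip1, a partner of the poly(A)-binding protein, fell by 0.37 (adjusted p = 0.00757), with −0.49 in SCA3 (adjusted p = 0.0174) that was −0.27 without arrays 2 and 5 (adjusted p = 0.164). Eif4e3, a relative of eIF4E, fell by 0.23 (adjusted p = 0.0483) on its brightest probe set, while the mean of its probe sets differed by 0.14 (adjusted p = 0.195). That call was lost without SCA3 CCI-779 arrays 2 and 5 (adjusted p = 0.0867) and without 12 of the 19 arrays when each was dropped (adjusted p up to 0.0954).

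Of 19 substrates and partners of S6 kinase, 5 rose and 5 fell on average, with a median of −0.02. Cad, the pyrimidine synthesis enzyme that S6 kinase activates, rose by 1.26 (SE 0.20, adjusted p = 2.29e-04). Its differences were 1.34 in SCA3 (adjusted p = 0.00385) and, in the wt mice, 1.18 (adjusted p = 0.0145). Eef2, the elongation factor that eEF2K inhibits, rose by 0.47 (SE 0.07, adjusted p = 7.76e-05), by 0.57 in SCA3 (adjusted p = 8.14e-04) and, in the wt mice, by 0.38 (adjusted p = 0.0169). Both wt calls were lost without wt placebo array 4 (adjusted p = 0.0501 for Cad and 0.0641 for Eef2), that of Eef2 also after median centring (0.27, adjusted p = 0.0713) and that of Cad with the GAPDH covariate (1.06, adjusted p = 0.0855). Both also passed in SCA3 without arrays 2 and 5, Cad at 1.06 (adjusted p = 0.028) and Eef2 at 0.44 (adjusted p = 0.00981). Rps6, ribosomal protein S6, rose by 0.16 (adjusted p = 0.0119), a call lost after quantile normalization (0.08, adjusted p = 0.181), after median centring (0.08, adjusted p = 0.192) and with the GAPDH covariate (0.12, adjusted p = 0.12). Camk2a, a synaptic kinase, fell by 0.41 (adjusted p = 0.00718). Gsk3b rose in SCA3 by 0.47 (adjusted p = 0.00378) on its brightest probe set, while the mean of its probe sets differed by 0.09 (adjusted p = 0.331). Pdpk1, the kinase that completes S6 kinase activation, fell there by 0.28 (adjusted p = 0.0279), a call that was lost without arrays 2 and 5 (−0.17, adjusted p = 0.228) and in the mean of its probe sets (0.01). It was also lost without SCA3 placebo array 2 or 4, or with only one of SCA3 CCI-779 arrays 2 and 5 dropped (adjusted p up to 0.0793). Rictor, a subunit of mTORC2, rose in wt by 0.35 (adjusted p = 0.0366), a call lost without any 1 of wt CCI-779 arrays 1, 3 and 4 and wt placebo arrays 2, 3 and 4, and after quantile normalization (0.26, adjusted p = 0.0685) or median centring (0.24, adjusted p = 0.0775).

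Of 11 subunits of eIF3, the complex that joins eIF4G to the small ribosomal subunit, 4 rose and 1 fell on average, with a median of 0.07. Eif3b rose by 0.41 (adjusted p = 0.00256), Eif3f by 0.24 (adjusted p = 0.00219), Eif3h by 0.24 (adjusted p = 0.00178) and Eif3c by 0.24 (adjusted p = 4.11e-04), while Eif3l fell by 0.19 on average (adjusted p = 0.00926). Without SCA3 CCI-779 arrays 2 and 5 that average was −0.13 and still passed (adjusted p = 0.0232), but it did not with the GAPDH covariate (−0.18, adjusted p = 0.0522). In SCA3 alone Eif3l fell by 0.24 (adjusted p = 0.0255), a call that was lost without arrays 2 and 5 (−0.13, adjusted p = 0.196), without either of them, or without SCA3 placebo array 4 or 5 (adjusted p up to 0.0672). The mean of the Eif3c probe sets differed by −0.08 (adjusted p = 0.135). After median centring 4 eIF3 subunits still rose and 1 fell, and the median was −0.01. Of 8 genes in a list of elongation factors and genes named for them, 3 rose and 0 fell, with a median of 0.05. These were Eef1a2, the form of eEF1A in neurons and muscle, at 0.24 (adjusted p = 0.00844), Eif5a at 0.19 (adjusted p = 7.57e-04) and Eef1b2 at 0.15 (adjusted p = 0.011), and after median centring 1 rose and 1 fell. The calls lost by that centring were Eef1a2 (0.16, adjusted p = 0.0545) and Eef1b2 (0.07, adjusted p = 0.201), and the mean of the Eif5a probe sets differed by 0.11 (adjusted p = 0.261).

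**Figure D5:**
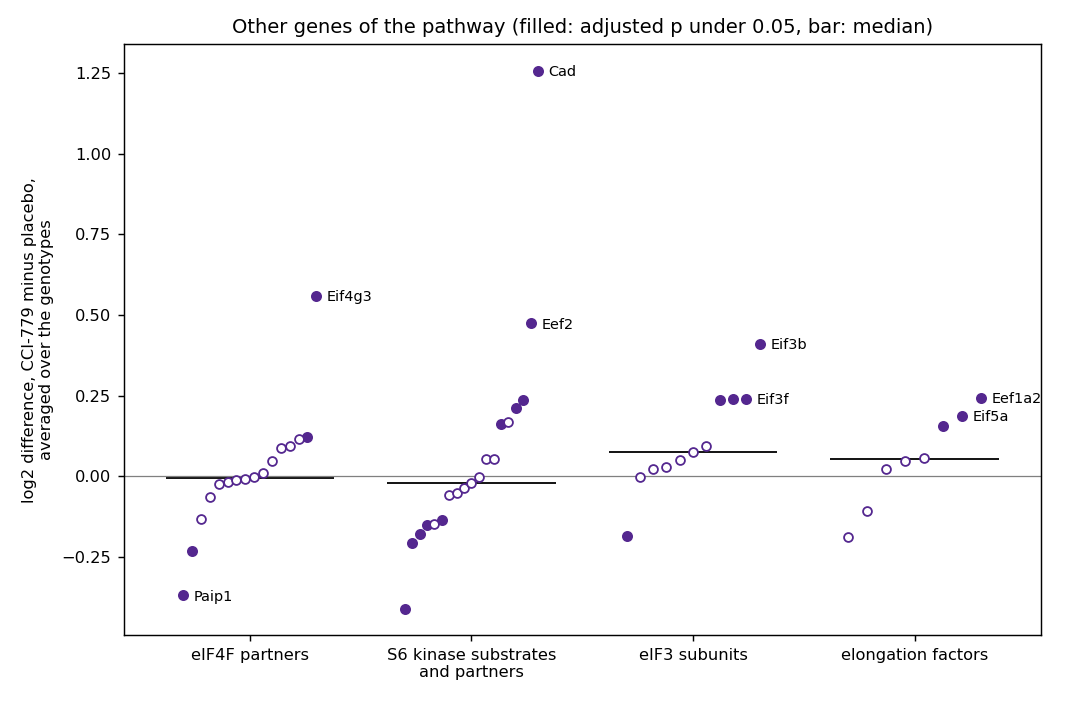
Log2 difference of CCI-779 minus placebo averaged over the genotypes for 54 other genes of the pathway in 4 lists, with filled points for an adjusted p under 0.05 and a bar at each list's median. Cad at 1.26, Eif4g3 at 0.56 and Eef2 at 0.47 lie highest, and Camk2a at −0.41 and Paip1 at −0.37 lie lowest.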

How the data were processed

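RNA of 19 mouse brain samples was measured on single-colour Affymetrix arrays, and the authors deposited linear intensity values. The submitters' processing notes name GCRMA, a method that models background from probe sequence, quantile-normalizes the arrays and gives 1 value a probe set. Its version and scanner settings are not given in the sources used here. Values ran from 2.26 to 73595. They were log2 transformed with no pseudocount. The 20473 probe sets (45.5% of those that are not controls) with a mean log2 of at least 4 entered 1 moderated linear model of 4 group means over all 19 arrays (limma 3.58.1, R 4.3.3), with 15 residual and 2.59 prior degrees of freedom. Tests were two-sided, with Benjamini-Hochberg adjustment over all tested probe sets of each of 6 contrasts and a threshold of 0.05. SDs are between arrays, SEs and 95% intervals from the fit. The number of arrays limits the precision.

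Groups were taken from genotype and agent in the labels. Genes were named from the platform annotation, where 34945 probe sets carried 1 symbol, 932 several and 9160 none. The members and the 4 pathway lists were chosen with earlier results of these data known. Every probe set of a member was reported. The genes named from each pathway list were among the up to 4 with the smallest p in a drug contrast. Of those, Paip2, Larp1, Eif5a2 and Eef1akmt1 passed in no drug contrast of the reported fit and were not described. The nearest to passing was Eif5a2, at −0.38 for SCA3 mice (adjusted p = 0.0751). For the genes named, not every drug contrast is given, so the description leans toward differences that passed. The fit was tested on simulated data with independent noise and no shared array effects, so that test does not cover arrays that stand apart. Alternatives were other filters, scalings, variance models, array weights, fits on the compared arrays, gene means, the replicate block and leaving out arrays. Leaving out the arrays that stood apart, also with gene means, and the covariates were chosen after seeing the data.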

Additional observations from a re-analysis of the deposited data

Results flagged for a closer look

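In 5 of 52 combinations of group and probe set, 1 array lay far from the others of its group, and chance flags about 1 in 20 such groups. For Eif4b 1426378_at the array of wt CCI-779 replicate 1 was at 9.65 with the next at 10.08. On Eif4b 1426379_at wt placebo replicate 1 was at 9.31 with the next at 8.81, and SCA3 placebo replicate 3 at 9.05 with the next at 8.80. Eif4ebp2 1437733_at was at 4.50 in SCA3 placebo replicate 3 with the next at 4.04. Eif4ebp1 1434976_x_at was at 4.28 in SCA3 placebo replicate 4 with the next at 4.16.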

How the results depend on the processing

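The 4 called differences of single probe sets kept their direction in every alternative fitted on single probe sets. A difference that passed under neither setting was given no direction, and 85 of these changed sign. Of the 13 probe sets, the number called in SCA3, 1 in the reported fit, was 2 after median centring, with array weights, with the GAPDH covariate and with the replicate block (2 higher), and 0 without SCA3 CCI-779 arrays 2 and 5 and with the spike-in covariate. It was 2 without those arrays and wt CCI-779 array 1, and 1 to 2 when any 1 array was dropped. In wt, where 0 passed, 1 passed after quantile normalization, with the GAPDH covariate, without the 3 arrays that stood apart and with the replicate block, 2 after median centring and with array weights, and 0 to 2 when any 1 array was dropped. With gene means 2 of 7 genes passed in SCA3, and without SCA3 CCI-779 arrays 2 and 5 as well 0 passed in SCA3 and 1 averaged. Averaged over genotypes 3 passed, against 6 after median centring, 0 with the spike-in covariate and 2 to 4 without single arrays. The genotype and interaction counts stayed at 0 in every alternative run. With array weights Eif4b 1426378_at passed in SCA3 and wt. The replicate block left out the wt CCI-779 array with no number. Same-numbered arrays correlated between −0.31 and 0.29 in their deviations from group means. No pairing by number was seen, though weak correlations cannot exclude one. Over all tested probe sets the calls in SCA3 ran from 1956 (without SCA3 CCI-779 array 2) to 4048 without single arrays (3107 reported) and were 1203 without SCA3 CCI-779 arrays 2 and 5. In wt they ran from 1343 to 2717 (2435 reported), with 1349, 1343 and 1355 without wt placebo array 2, 3 or 4, and were 770 with the GAPDH covariate and 1364 on the compared arrays alone. With no filter they were 1584 in wt. The block gave 1384 in wt, the GAPDH covariate 3652 averaged (5886 reported), and gene means 1541, 1131 and 2848 of the 10454 genes. With gene means the averaged sign turned for the genes of 2 called probe sets, Eif4ebp2 (0.10) and Eif4b (−0.02), and the sign turned for Pdpk1 in SCA3 (0.00966), Eif3c in wt (−0.0516) and on average (−0.0820) and Eif4e3 on average (0.14). Without arrays 2 and 5 as well these were 0.0748 for Pdpk1, −0.0646 for Eif3c and 0.17 for Eif4e3 on average. The cause was not tested. The Eif4ebp2 mean includes the probe set that passed the limit for testing only through the SCA3 CCI-779 group. Averaged over genotypes, that mean was −0.06 without SCA3 CCI-779 arrays 2 and 5. Few arrays and dim probe sets limit what can be seen: 7 of the 20 probe sets were not tested.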
